A study of Rattus norvegicus with 6 samples.

Results

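The genes described here encode C-type lectin receptors, Fc receptors and paired immune receptors, taken from the deposited table as every gene whose name begins with Clec and a number, Fcgr, Fcer, Siglec, Lilr, Pilr or Cd300. The rule found 58 of 22250 genes, which were 31 Clec, 5 Fcgr, 3 Fcer, 6 Siglec, 6 Lilr and 7 Cd300 genes, and 0 Pilr genes. The study asked what differs between young and aged donor hearts after cold storage and transplantation. RNA-Seq was performed on myocardium of the left ventricle from 3 young donor hearts (10 weeks, animals 3, 13 and 15) and 3 aged donor hearts (1 year, animals 3, 4 and 7). All donors were wild-type (WT) Sprague-Dawley rats, and every heart had been placed heterotopically, as a second heart, into a young rat and was taken on postoperative day 1. Per the study's methods, all hearts were stored cold in University of Wisconsin solution, the transplants were syngeneic, only male rats were used and no immunosuppressant was given. An age of 1 year stands for middle rather than old age in rats. Blood cells in a graft can belong to the donor or to the recipient, and these cannot be told apart in the data. The numbers 3 in the young and in the aged group name different hearts.

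C-type lectin receptors bind sugars, lipids or debris of dying cells through a carbohydrate-recognition fold, and many sit on macrophages, dendritic cells and neutrophils. Fc receptors bind the constant part of antibodies, Siglecs bind sialic acid, and Lilr and Cd300 proteins are immunoglobulin-like receptors that often come as activating and inhibitory pairs. Activating members signal through short adaptor chains with tyrosine motifs (FcRγ, encoded by Fcer1g, or DAP12, encoded by Tyrobp) and the kinase Syk. Inhibitory members carry their own tyrosine motifs, which recruit the phosphatases SHP-1, SHP-2 or SHIP-1. Not every gene with a Clec name encodes such a receptor, since tetranectin (Clec3b) is secreted and Clec16a acts inside the cell.

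The depth was even, with 21457509 to 24560869 counts per heart, but the libraries were not alike within groups. Levels are given as CPM, the count relative to the library size after TMM scaling, and 3 counts correspond to 0.0985 to 0.191 CPM. The summed CPM of 9 cardiomyocyte markers, which define the labelled tissue, was 72577 and 81797 in young hearts 3 and 13, 10528 in young heart 15, and 121, 5747 and 3801 in aged hearts 3, 4 and 7. Cardiomyocyte transcripts were thus close to absent from aged heart 3, and young heart 15 lay nearer to the aged hearts than to the other young hearts. The summed CPM of 12 neutrophil markers was 17.1, 17.2 and 145 in young hearts and 1363, 358 and 772 in aged hearts, and that of 12 macrophage markers was 369, 334 and 1042 against 2544, 1634 and 1087. The mitochondrial share of counts was 21.7%, 21.7% and 11.9% in young hearts and 6.56% to 10.3% in aged hearts. The part of these differences in the results on the receptors was not tested. In bulk tissue fewer cells of a type and less RNA per cell cannot be told apart.

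The receptors took 0.048%, 0.0416% and 0.152% of the counts in young hearts 3, 13 and 15 and 0.451%, 0.216% and 0.239% in aged hearts 3, 4 and 7. Of the 58 genes, 46 passed the filter on low counts and were tested, among 13784 genes in all. The study's limits were a fold above 1.5 or under 0.67 with a p-value below 0.05, taken here as the unadjusted p-value of edgeR's quasi-likelihood test. With these limits 14 of the 46 were higher in aged donor hearts, against a background of 13.2% of all genes, and 5 were lower, against a background of 19.0%. These counts make up 30.4% and 10.9% of the tested receptors. The median log2 fold change was 1.72 over the 46 receptors and 0.016 over all genes tested. After Benjamini-Hochberg adjustment 0 of the 46 had an adjusted p under 0.05 by edgeR, as did 0 of all genes, whereas 19 receptors and 4731 genes had an unadjusted p-value under 0.05. By DESeq2 3592 genes and by limma-voom 8416 genes had an adjusted p under 0.05. The receptor gene Clec4e was in both sets (adjusted p = 0.00194 by DESeq2 and 0.00167 by limma-voom). Cd300e was in neither (0.520 and 0.758). The absence of adjusted calls among the receptors thus depended on the test. The smallest adjusted p of a receptor by edgeR was 0.0916, and 8 of the 46 (17.4%) had one under 0.1, against a background of 18.8%.

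In 22 of the 46 genes every aged heart lay above every young heart, against a background of 21.0%, and in 3 every aged heart lay below, against a background of 20.6%. Of the 14 genes called higher, 12 showed no overlap between the groups, and another 10 genes without overlap missed the limits. An exact permutation test, two-sided, of one gene in 2 groups of 3 gives 0.1 as its smallest p-value. The edgeR p-values set the difference between the groups against the spread within them, which is estimated with information from all genes. They rest on these 6 hearts alone.

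**Figure D1:**
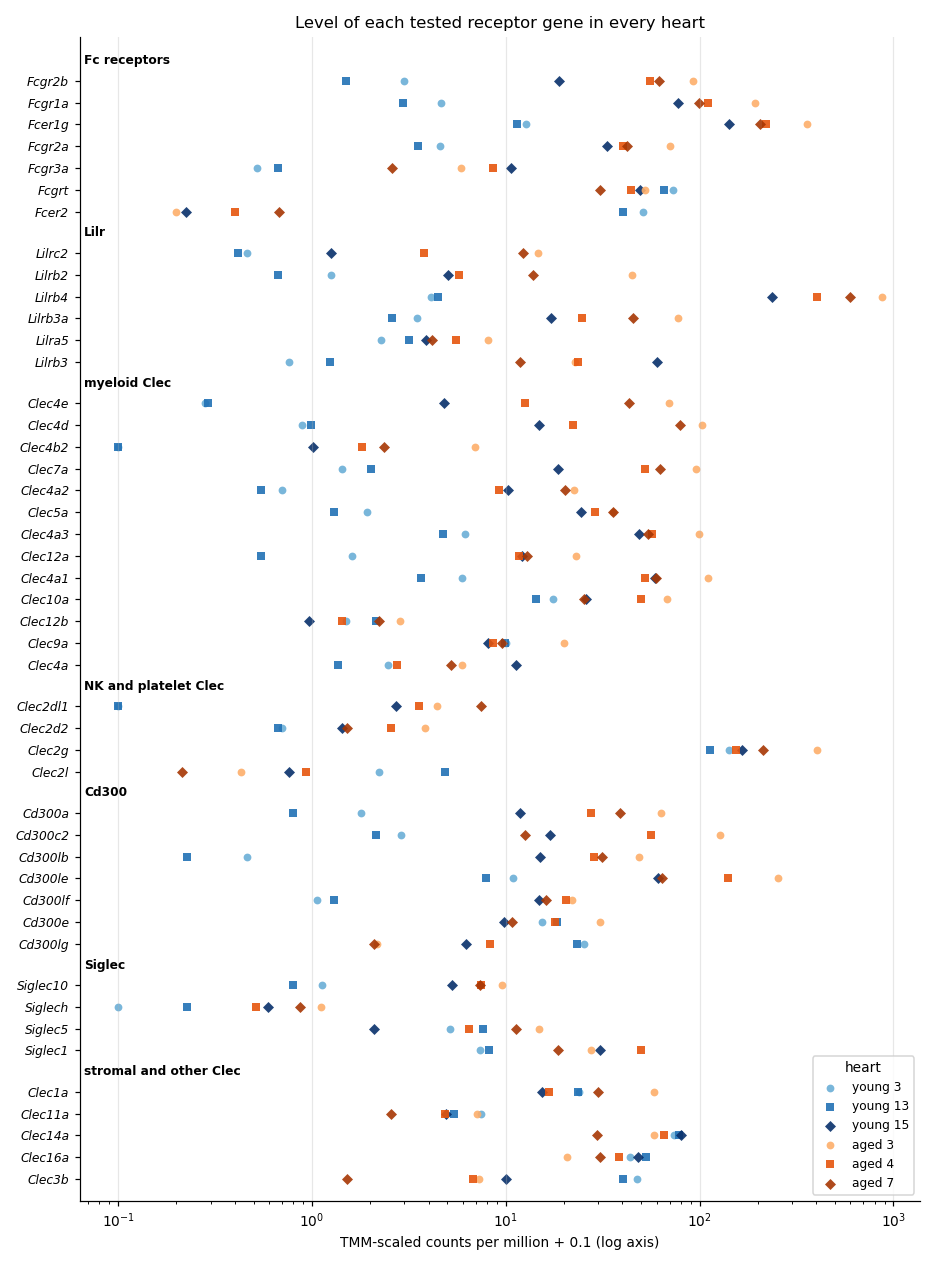
Levels of the 46 tested receptor genes, as TMM-scaled CPM + 0.1 on a log axis, genes grouped by family and one symbol per heart (blue for young, orange for aged). In most families young hearts 3 and 13 lie to the left, and young heart 15, the highest of the young hearts for 34 of the 46 genes, lies beside the aged hearts.

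Young heart 15 set the size of many differences. It held the highest of the young values for 34 of the 46 genes, and it lay above the lowest aged heart for 9 of the 36 genes with a positive log2 fold change. When it was left out, 32 of the 46 receptors were higher in aged hearts, against a background of 26.9% of 14109 genes, and 5 were lower, against a background of 24.2%. The median log2 fold change of the 46 was then 3.73, against 0.068 over all genes, and stayed at 3.73 with the genes at 0 reads in both remaining young hearts set to their lower bound. Without aged heart 3, the highest aged heart for 36 of the 46 genes, 4 of 48 tested receptors were higher (8.33%), against a background of 7.47% of 14033 genes, and 3 were lower (6.25%), against a background of 14.7%. The share higher was then close to that of all genes. With libraries scaled by their totals alone, 18 of the 46 were higher, against a background of 22.8%, and 3 were lower, against a background of 10.5%. Of the 19 calls, 6 were kept whichever heart was left out, namely those of Lilrc2, Clec4e, Fcgr2b and Clec7a, which were higher, and of Fcer2 and Clec3b, which were lower. Of the other 13, none held without aged heart 3, and 12 were lost without young heart 3, 10 without young heart 13, 5 without aged heart 4, 5 without aged heart 7 and 1, Clec16a, without young heart 15.

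**Figure D2:**
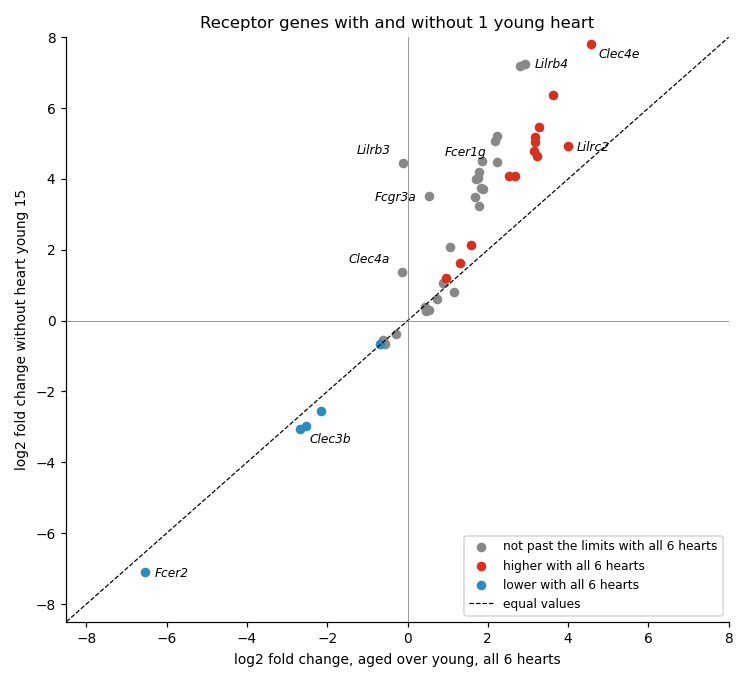
Log2 fold change of receptor genes, aged over young donor hearts, with all 6 hearts on the horizontal axis and without young heart 15 on the vertical axis; the dashed line marks equal values, and Clec4b2 and Clec2dl1, with 0 reads in both remaining young hearts, are not drawn. Most genes with a positive value lie above the line, and Lilrb3 moves from -0.11 to 4.45, while the genes called lower lie near the line.

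Among the Fc receptors, Fcgr2b rose, Fcer2 fell and 5 of the 7 tested genes missed the limits. Over all genes tested, 13.2% rose and 19.0% fell, shares close to those of this family. Fcgr2b (ENSRNOG00000046452), the inhibitory receptor for IgG, measured 2.9, 1.4 and 18.8 CPM in young hearts 3, 13 and 15 and 92.6, 55.5 and 61.7 CPM in aged hearts 3, 4 and 7. The groups did not overlap, and the log2 fold change was 3.17 ± 0.96 (SE, adjusted p = 0.0954), or 2.68 to 5.05 with each heart left out in turn. The activating IgG receptors were also higher in every aged heart for 2 of 3 genes, against a background of 21.0% of all genes. In these 2 genes young heart 15 lay between the other young hearts and the aged hearts. The high-affinity receptor Fcgr1a measured 4.54, 2.86 and 77.4 CPM in young hearts and 192, 110 and 98.8 CPM in aged hearts, with a log2 fold change of 2.24 ± 1.24 (SE). Fcgr2a measured 4.48, 3.43 and 33.1 CPM against 70, 40 and 42.1 CPM, with 1.88 ± 0.89 (SE). Fcgr3a was highest in young heart 15 (10.5 CPM), at 0.423 and 0.572 CPM in the other young hearts and at 2.49 to 8.53 CPM in the aged hearts, so its log2 fold change was 0.52 ± 1.20 (SE) with all hearts and 3.51 without young heart 15.

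Fcgr2b and Fcgr3a lie at chr13:89327794-89433815 and chr13:89385859-89396051 (build Rnor_6.0) on opposite strands, and Fcgr3a is contained in the span of Fcgr2b. The use of strand in counting is not given in the sources used here, so reads shared by this pair cannot be assigned with certainty. Fcgr2a likewise spans LOC108348047 on its own strand.

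Fcer1g, the FcRγ chain that several activating Fc, Lilr and Clec receptors need, measured 12.6, 11.3 and 142 CPM in young hearts and 358, 220 and 205 CPM in aged hearts. All aged hearts lay above all young hearts, but the step between young hearts 13 and 15 was larger than that between young heart 15 and aged heart 7. The log2 fold change was 2.23 ± 1.04 (SE, adjusted p = 0.175) with all hearts, which missed the limits, and 4.48 ± 0.35 (SE, adjusted p = 0.00117) without young heart 15. Over all settings tried its adjusted p ran from 0.000433 to 0.375. Fcgrt, the neonatal Fc receptor that carries IgG and albumin through endothelium and other cells, went the other way, from 72.7, 65.7 and 49.1 CPM to 52.4, 44.4 and 30.6 CPM, with a log2 fold change of -0.56 ± 0.26 (SE) that missed the limits.

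The largest difference among the receptors was that of Fcer2 (ENSRNOG00000001005), which encodes CD23, the low-affinity receptor for IgE and itself a C-type lectin known from B cells. It was counted 843 and 629 times in young hearts 3 and 13 but 3 times in young heart 15, and 3, 8 and 15 times in aged hearts 3, 4 and 7. On the CPM scale these are 51 and 40 against 0.124 in the young group and 0.0985, 0.303 and 0.575 in the aged group. The groups overlapped, because young heart 15 lay at the level of the aged hearts. The log2 fold change was -6.54 ± 1.86 (SE, adjusted p = 0.0925), and -7.09 without young heart 15. The 6 B cell markers summed to 3.09, 4.26 and 1.36 CPM in young hearts and 8.41, 2.2 and 4.98 CPM in aged hearts, with 0 of the 4 tested B cell genes past the limits. Cd79a, a defining part of the B cell receptor, was at 0.544, 0.509 and 0.496 CPM in young hearts and at 1.02, 0.265 and 0.46 CPM in aged hearts. CD23 transcripts were thus high in young hearts 3 and 13 while B cell markers were low in all 6 hearts.

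All 6 Lilr genes were tested, and Lilrc2, Lilrb3a, Lilrb2 and Lilra5 rose, against a background of 13.2% of all genes. Lilrc2 (ENSRNOG00000058087) had the smallest p-value of all the receptors and measured 0.363, 0.318 and 1.16 CPM in young hearts and 14.5, 3.68 and 12.2 CPM in aged hearts. Its log2 fold change was 3.99 ± 0.75 (SE, adjusted p = 0.0916), or 3.65 to 4.92 with each heart left out in turn. Lilrb3a, an inhibitory receptor gene, measured 3.39, 2.48 and 17 CPM against 77, 24.6 and 45 CPM, with a log2 fold change of 2.67 ± 0.84 (SE, adjusted p = 0.0985) that was 2.19 and no longer called without aged heart 3. Lilrb2, whose human namesake is an inhibitory receptor for MHC class I, measured 1.15, 0.572 and 4.96 CPM against 44.5, 5.61 and 13.7 CPM, with 3.23 ± 1.06 (SE, adjusted p = 0.104), and was no longer called without aged heart 3 (2.10) or young heart 3 (2.92). Lilra5, an activating member, differed least, at 2.18, 3.05 and 3.76 CPM against 8.01, 5.42 and 4.06 CPM (log2 fold change 0.96 ± 0.37 SE, adjusted p = 0.13), and its call was lost without aged heart 3 (0.66) or 4 (1.01) or young heart 3 (0.77) or 13 (0.97). In each of these 4 genes, which had already been called higher, every aged heart lay above every young heart. The background of such genes was 21.0% of all genes. Young heart 15 was the highest young heart throughout.

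Lilrb4, an inhibitory receptor of macrophages and dendritic cells, and Fcer1g were the most abundant of the 58 genes in each aged heart after correction for transcript length. Lilrb4 had 515, 237 and 351 CPM per kilobase in aged hearts 3, 4 and 7 and Fcer1g 568, 349 and 324, so their order differed between hearts. Before that correction Lilrb4 measured 3.99 and 4.39 CPM in young hearts 3 and 13, 237 CPM in young heart 15 and 873, 402 and 595 CPM in aged hearts 3, 4 and 7. The groups did not overlap, yet the spread within the young group left the log2 fold change of 2.93 ± 1.59 (SE, adjusted p = 0.225) short of the limits, and without young heart 15 it was 7.25 ± 0.50 (SE, adjusted p = 0.00102). Over all settings tried its adjusted p ran from 0.000433 to 0.402. Its neighbour Lilrb3 had its highest value in a young heart, at 60.4 CPM in young heart 15, against 0.665 and 1.14 CPM in young hearts 3 and 13 and 22.8, 23.5 and 11.8 CPM in aged hearts. The log2 fold change of Lilrb3 was -0.11 ± 1.49 (SE) with all hearts and 4.45 without young heart 15.

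The Lilr genes form 2 groups on chromosome 1. Lilrc2, Lilrb2 and Lilrb3a lie at chr1:63679769-64013289 (Rnor_6.0) and all 3 rose, whereas of Lilrb4, Lilrb3 and Lilra5 at chr1:73393850-73682247 only Lilra5 passed the limits. The background of genes called higher was 13.2%. The symbols are those of the table, which also lists Pirb, the rodent inhibitory receptor related to Lilrb3, as a separate gene. RefSeq joins the name Lilrb3a to Pirb, and the family is made of close paralogs, so the split of reads among these genes is uncertain. Pirb, which is no member by its name, measured 0.423, 0.954 and 1.61 CPM in young hearts and 5.65, 3.26 and 6.09 CPM in aged hearts and rose (log2 fold change 2.30 ± 0.54 SE, adjusted p = 0.0916). Lilrb3a spans LOC690948 on its own strand.

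Exactly 1 RefSeq promoter (build GRCr8) was matched for 43 of the 58 members, 42 by symbol and 1, Lilrb3a, by gene ID under the name Pirb. Members with no match or with several, Fcer1g and Fcgr2b among them, were left out. The promoters of all genes were not limited in this way. Of the 14 genes called higher 10 were matched, and of the 5 called lower 2. The letters of the PU.1 box, GAGGAA, were searched on both strands because PU.1 is the factor best known for directing myeloid genes. They occurred in 24 of the 43 promoters of 300 bases (55.8%) and in 27.6% of all 33469 promoters. The letters occurred in 7 of the 10 promoters of genes called higher and in 1 of the 2 of genes called lower. The C/EBP letters TTGCNNAA were found in 12 of the 43 (27.9%) and in 10.6% of all promoters, and the AP-1 letters TGANTCA in 4 of the 43 (9.30%) and in 7.33% of all promoters. These shares describe letters in a window, not binding. Windows of 30 bases, shown on the strand of the gene with the PU.1 letters or their reverse complement in capitals, follow for 4 genes that rose and 2 that were highest in young heart 15. They lie at chr4:158298593-158298622 (Clec4e), chr4:158275304-158275333 (Clec4d), chr1:74192644-74192673 (Lilrc2), chr1:74242172-74242201 (Lilrb2), chr4:158100597-158100626 (Clec4a) and chr13:85782570-85782599 (Fcgr3a). Counted from the start site, the letters begin at -6 in Clec4a, -16 in Lilrb2, -27 in Clec4d, -54 in Fcgr3a, -77 in Lilrc2 and -143 in Clec4e, so genes of both patterns carry them. None of these matches overlaps a C/EBP or AP-1 match, and the window of Clec4e holds a C/EBP match beside the PU.1 letters.
Clec4e: ccttgtgcaagaGAGGAAattctgacttaa
Clec4d: tggagtacattaGAGGAAactccttttttc
Lilrc2: gttgtataaaacTTCCTCtttttgatgcga
Lilrb2: gagcagtttcacTTCCTCtgaggctgtggt
Clec4a: ctctttttgacgGAGGAAattcttttcttg
Fcgr3a: aaagctatttacTTCCTCtcttctagccaa

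Of the myeloid C-type lectins, 13 of 16 were tested. Of these 5 rose, against a background of 13.2% of all genes, and 0 fell, against a background of 19.0%. Clec4e (ENSRNOG00000061394) encodes Mincle, a receptor for microbial glycolipids and for a nuclear protein released by dying cells. It was counted 3 times in each of young hearts 3 and 13, and its level was 0.181, 0.191 and 4.71 CPM in young hearts and 69.3, 12.4 and 43.3 CPM in aged hearts. The groups did not overlap, and the log2 fold change was 4.56 ± 1.36 (SE, adjusted p = 0.0944), the largest rise among the receptors, with 3.99 to 7.81 when each heart was left out in turn. Clec4d, which encodes the partner receptor of Mincle, measured 0.786, 0.89 and 14.7 CPM against 103, 22.2 and 78.8 CPM, with a log2 fold change of 3.62 ± 1.27 (SE, adjusted p = 0.114). Young heart 15 lay between the other young hearts and the aged hearts for both genes, and aged heart 4 was the lowest aged heart for both. The call of Clec4d was lost without aged heart 3 or 7 or without young heart 3 or 13, with a lowest log2 fold change of 3.12.

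Clec7a, which encodes the β-glucan receptor Dectin-1, measured 1.33, 1.91 and 18.5 CPM in young hearts and 96.3, 52 and 62.8 CPM in aged hearts. Its log2 fold change of 3.27 ± 1.04 (SE, adjusted p = 0.0991) was called whichever heart was left out (2.78 to 5.48). Clec4b2 was counted 0 times in young hearts 3 and 13 and 22 times in young heart 15, against 209, 45 and 59 times in aged hearts, and rose by 3.42 ± 1.34 (SE, adjusted p = 0.133) on the log2 scale. This call held only with all hearts or without young heart 15. Clec10a, the macrophage galactose lectin, measured 17.4, 14.3 and 25.8 CPM against 67.9, 50 and 25.2 CPM, with a log2 fold change of 1.31 ± 0.41 (SE, adjusted p = 0.0981). Here the groups overlapped, since aged heart 7 lay just under young heart 15, and the call was lost without aged heart 3 (0.98) or young heart 3 (1.25) or 13 (1.14).

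The other 8 tested myeloid lectins missed the limits. Clec4a3 (log2 fold change 1.82 ± 0.93 SE), Clec4a2 (2.18 ± 1.17), Clec4a1 (1.70 ± 1.05), Clec5a (1.86 ± 1.09) and Clec12a (1.74 ± 1.07) shared one pattern, with low values in young hearts 3 and 13 and a value of young heart 15 close to the aged hearts. Clec5a, a DAP12-coupled receptor, shows it clearly, at 1.81, 1.21 and 24.5 CPM in young hearts and 35.8, 28.8 and 35.9 CPM in aged hearts. All 5 were past the limits without young heart 15, with log2 fold changes of 3.75, 5.06, 4.01, 4.50 and 4.04 in the same order. In that fit 26.9% of all genes were called higher. Clec4a, the inhibitory receptor DCIR, was highest in young heart 15 (11.2 CPM), at 2.36 and 1.27 CPM in the other young hearts and 5.88, 2.65 and 5.1 CPM in aged hearts, and its log2 fold change of -0.13 ± 0.81 (SE) became 1.36 without that heart. Clec9a, a receptor of cross-presenting dendritic cells for exposed actin, measured 8.01 to 9.98 CPM in young hearts and 8.45 to 20 CPM in aged hearts (0.45 ± 0.38), and the inhibitory receptor Clec12b was under 3 CPM in every heart (0.54 ± 0.46). Unlike those of the 5 genes above, the values of Clec9a and Clec12b in young heart 15 were the lowest of all 6 hearts.

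Clec4e, Clec4d, Clec4b2, Clec4n, Clec4a and Clec4a1 to Clec4a3 lie together at chr4:155792761-156276304 (Rnor_6.0). Of the 8 genes 7 were tested and 3 rose, which are Clec4b2, Clec4d and Clec4e at one end of the block, while the Clec4a genes at the other end missed the limits. A second block at chr4:162281574-163227334 holds 11 members, of which 8 were tested and 2, Clec2d2 and Clec7a, rose. The background of genes called higher was 13.2% for both blocks.

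**Figure D3:**
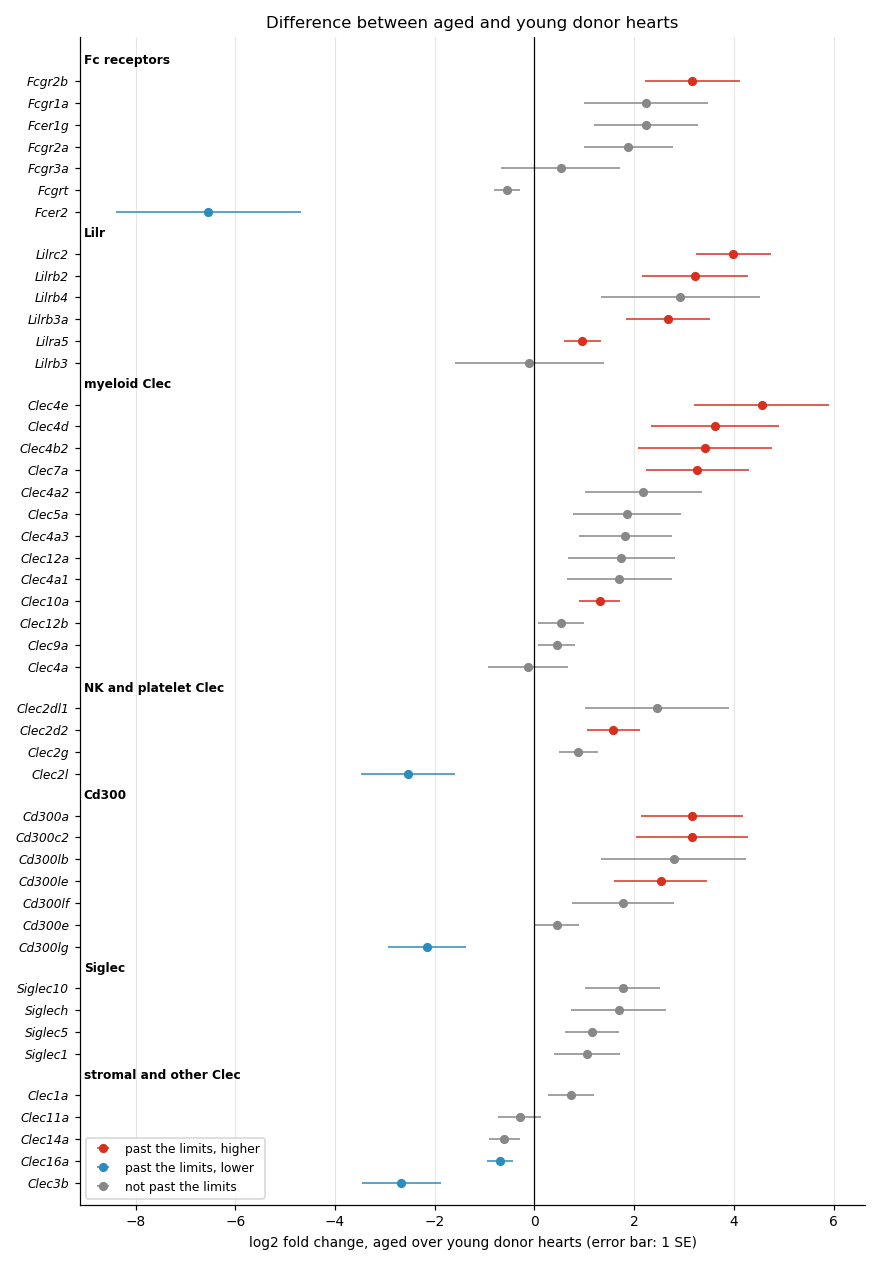
Log2 fold change, aged over young donor hearts, of the 46 tested receptor genes by family, with error bars of 1 SE; red and blue mark genes past the limits. The 14 genes in red run from 0.96 for Lilra5 to 4.56 for Clec4e, and of the 5 in blue Fcer2 lies farthest from 0, at -6.54.

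Of the Cd300 family, immunoglobulin-like receptors for lipids on the surface of dying and other cells, all 7 genes were tested. Cd300a, Cd300c2 and Cd300le rose, against a background of 13.2% of all genes, and Cd300lg fell, against a background of 19.0%. Cd300a, an inhibitory receptor for phosphatidylethanolamine and phosphatidylserine, measured 1.69, 0.699 and 11.8 CPM in young hearts and 62.9, 27.4 and 39 CPM in aged hearts. The groups did not overlap, and the log2 fold change of 3.16 ± 1.02 (SE, adjusted p = 0.101) was no longer called without aged heart 3 (2.79) or young heart 3 (2.77). Cd300c2 measured 2.78, 2.03 and 16.9 CPM against 127, 56.3 and 12.4 CPM, with a log2 fold change of 3.16 ± 1.13 (SE, adjusted p = 0.116) and with aged heart 7 below young heart 15. It shares part of its span with RGD1559482 on the same strand. Cd300le measured 10.8, 7.82 and 60.8 CPM against 255, 141 and 64.3 CPM (2.53 ± 0.93 SE, adjusted p = 0.119), so aged heart 7 exceeded young heart 15 by little. The calls of Cd300c2 and Cd300le were lost without aged heart 3 or 4 or without young heart 3 or 13, with lowest values of 2.24 and 1.95.

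Cd300lb, an activating receptor, missed the limits although the groups did not overlap, at 0.363, 0.127 and 14.9 CPM in young hearts and 48.4, 28.5 and 31.2 CPM in aged hearts (log2 fold change 2.79 ± 1.46 SE). The same held for Cd300lf, an inhibitory receptor, at 0.968, 1.21 and 14.7 CPM against 21.9, 20.2 and 16 CPM (1.77 ± 1.02 SE). Without young heart 15 their log2 fold changes were 7.19 and 4.19 and both were past the limits, against a background of 26.9% of all genes higher. Cd300e, an activating receptor of monocytes, did not follow its neighbours, with 9.66 to 18.2 CPM in young hearts and 10.6 to 30.4 CPM in aged hearts (0.45 ± 0.44 SE). These 6 genes lie at chr10:103438303-105051965 (Rnor_6.0). Cd300lg, which encodes nepmucin, an adhesion receptor of endothelium, lies apart at chr10:89976547-89994776. Its level was 25.3, 23.3 and 6.11 CPM in young hearts and 2.07, 8.19 and 1.99 CPM in aged hearts, with a log2 fold change of -2.16 ± 0.78 (SE, adjusted p = 0.117). Young heart 15 lay below aged heart 4, and the call was lost without young heart 3 or 13 or aged heart 3 or 7, when the value went no nearer to 0 than -1.82. The endothelial marker Emcn fell too (log2 fold change -1.34 ± 0.30 SE, adjusted p = 0.0916), whereas the other 7 tested endothelial markers missed the limits, and the part of endothelial transcripts in the fall of Cd300lg was not tested.

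No gene with a Siglec name passed the limits among the 4 tested of 6. Over all genes tested, 13.2% were called higher and 19.0% lower. Family members under other names, such as Cd33, which rose, are counted with the other paired receptors below. Siglec10, an inhibitory receptor, came nearest, at 1.03, 0.699 and 5.2 CPM in young hearts and 9.49, 7.32 and 7.28 CPM in aged hearts, without overlap (log2 fold change 1.77 ± 0.75 SE, adjusted p = 0.152). Siglec1, the sialoadhesin of tissue macrophages, was higher in young heart 15 (30.5 CPM) than in aged hearts 3 and 7 (27.3 and 18.5 CPM) and measured 49.8 CPM in aged heart 4 and 7.26 and 8.08 CPM in the other young hearts (1.06 ± 0.66 SE). Siglec5 was lowest in young heart 15, at 1.98 CPM, with 5.08 and 7.5 CPM in the other young hearts and 6.33 to 14.7 CPM in aged hearts (1.15 ± 0.55 SE). Siglech, a marker of plasmacytoid dendritic cells, stayed at or under 1.02 CPM in every heart (1.69 ± 0.95 SE). Without young heart 15, Siglec1, Siglec10 and Siglech were past the limits and Siglec5 was not, against a background of 26.9% of all genes higher.

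Of the lectins known from natural killer cell ligands and platelets, 4 of 7 were tested. Of these 1 rose, against a background of 13.2% of all genes, and 1 fell, against a background of 19.0%. Clec2d2, whose relatives are ligands of natural killer cell receptors, rose from 0.605, 0.572 and 1.32 CPM to 3.74, 2.46 and 1.42 CPM (log2 fold change 1.58 ± 0.54 SE, adjusted p = 0.108), and the call was lost without aged heart 3 or 4 or young heart 3 or 13 (lowest value 1.20). Clec2dl1 was counted 0 times in young hearts 3 and 13, and measured 2.6 CPM in young heart 15 and 4.3, 3.45 and 7.4 CPM in aged hearts. Its log2 fold change of 2.46 ± 1.45 (SE) missed the limits, and against the 2 young hearts without a read its mean level in aged hearts was at least 27.1-fold higher, taking 3 counts per library as the floor. Clec2d lies within the span of Clec2dl1 on the same strand and had 18 counts at most, so reads of the pair are uncertain. Clec2g was the most abundant receptor gene of young hearts 3 and 13, with 70.3 and 56.0 CPM per kilobase, but in young heart 15 (81.7) it lay below Fcer1g (226), Lilrb4 (140) and Cd300le (83.2). It measured 142, 113 and 165 CPM in young hearts and 402, 153 and 214 CPM in aged hearts (0.88 ± 0.39 SE). Clec2l, a relative known from brain, fell from 2.12, 4.77 and 0.661 CPM to 0.328, 0.834 and 0.115 CPM (-2.54 ± 0.94 SE, adjusted p = 0.121). Young heart 15 lay below aged heart 4, and the call was lost without young heart 3 or 13 or aged heart 3 or 7, with a value nearest to 0 of -1.68.

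The remaining Clec genes encode secreted, endothelial or intracellular proteins, and of 8 such genes 5 were tested. Of the 5, 0 rose, against a background of 13.2% of all genes, and 2 fell, against a background of 19.0%. Clec3b (ENSRNOG00000004540, chr8:132241134-132246694 in Rnor_6.0) encodes tetranectin, a secreted protein that binds plasminogen. It measured 47.5, 40.2 and 9.91 CPM in young hearts and 7.19, 6.71 and 1.42 CPM in aged hearts. The groups did not overlap, with young heart 15 nearer to the aged hearts, and the log2 fold change of -2.67 ± 0.80 (SE, adjusted p = 0.0947) was called whichever heart was left out (-3.06 to -2.22). Clec16a, an endosomal protein with a role in mitophagy, was at 43.6, 53.1 and 48 CPM against 20.5, 38.5 and 30.7 CPM, a log2 fold change of -0.69 ± 0.26 (SE, adjusted p = 0.123). The 3 young hearts were alike and all lay above the aged hearts. Its call was kept only without aged heart 4, and the values ran from -0.91 to -0.47 with each heart left out. Clec14a, of endothelium, was lower in every aged heart (73.9, 78.3 and 80.2 CPM against 57.9, 65.4 and 29.4 CPM) but missed the limits (-0.61 ± 0.31 SE). Clec1a (0.74 ± 0.46 SE) and the growth factor gene Clec11a (-0.30 ± 0.43 SE) overlapped between the groups. With libraries scaled by their totals alone, the all-gene median moved to 0.46, Clec16a and Clec2l were no longer called (-0.25 and -1.96), and the median of these 5 genes went from -0.61 to -0.17.

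The remaining 12 receptor genes did not pass the filter on low counts. Clec18a and Clec3a had 0 reads in every heart. Clec1b, which encodes the platelet receptor for podoplanin, had 8, 3 and 2 counts in young hearts and 142, 6 and 43 counts in aged hearts 3, 4 and 7, so its signal came from 2 hearts. The platelet marker Pf4 was also highest in aged heart 3 (110 CPM) and rose (log2 fold change 2.81 ± 0.69 SE, adjusted p = 0.0916), whereas Itga2b, the other tested platelet marker of 6, missed the limits (0.51 ± 0.57 SE), Gp1bb and Gp5 were at 0 in every heart, and Gp9 and Ppbp stayed at or under 0.657 CPM. Clec4g reached 26 counts, Clec2d 18, Siglec15 15, Clec2e 9, Clec4n 8, Fcer1a 6, Clec4m 5, Siglecl1 4 and Clec4f 1. Fcer1a, the IgE-binding chain of the high-affinity IgE receptor of mast cells, was thus close to absent at this depth.

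The make-up of the receptor transcripts differed between the hearts as well as their amount. After correction for transcript length, the Lilr genes made up 1.45%, 1.80% and 18.1% of the summed level of the 58 genes in young hearts 3, 13 and 15 and 22.0%, 18.8% and 27.3% in aged hearts 3, 4 and 7. Most of the Lilr share in the last 4 hearts was Lilrb4, which missed the limits. Lilrb4 alone made up 0.649%, 0.816% and 14.6% in young hearts and 19.7%, 17.1% and 25.0% in aged hearts. The stromal and other Clec genes went the other way, from 29.4%, 31.5% and 6.23% to 2.06%, 3.47% and 2.19%. Fc receptors made up a like share throughout, 26.6% to 34.6% in young hearts and 29.8% to 34.9% in aged hearts, but within them Fcgrt went from 12.9% and 13.4% of the sum in young hearts 3 and 13 to 1.29% to 2.07% in aged hearts, while Fcer1g went from 5.52% and 5.66% to 21.7% to 25.2%. In young heart 15 the shares of Fcgrt and Fcer1g were 3.31% and 23.6%, close to those of the aged hearts. The summed level itself was 363, 317 and 959 CPM per kilobase in young hearts and 2616, 1386 and 1404 in aged hearts.

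**Figure D4:**
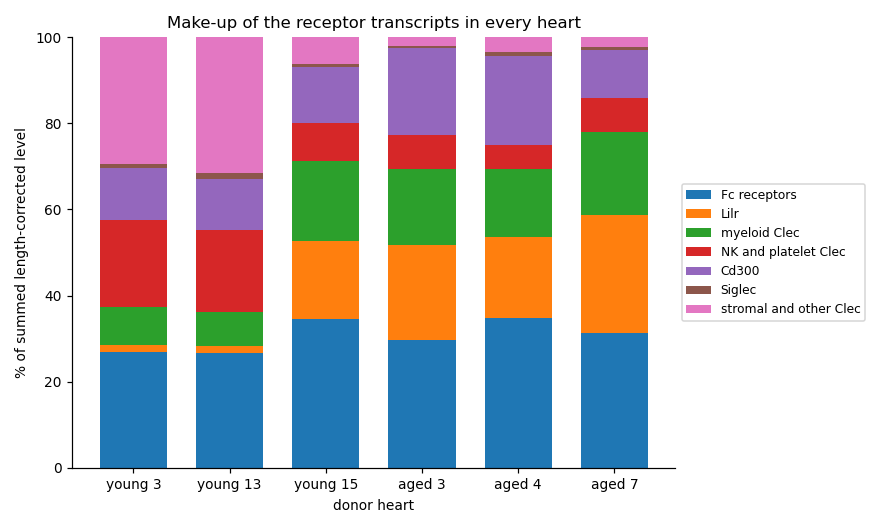
Share of each receptor family in the summed length-corrected level of the 58 genes, in percent, as stacked bars for the 6 donor hearts. Stromal and other Clec genes make up 29.4% and 31.5% in young hearts 3 and 13 and at most 6.23% in the other 4 hearts, where Lilr genes make up 18.1% or more.

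Genes that carry the signal of these receptors were taken from a list of 28 adaptors, kinases, phosphatases and downstream effectors, all of them tested. Of the 28, 11 rose, against a background of 13.2% of all genes, and 1 fell, against a background of 19.0%. Their median log2 fold change was 1.46, against 0.016 over all genes. The Src-family kinase Lyn, which phosphorylates both activating and inhibitory motifs, measured 51.8, 54.3 and 114 CPM in young hearts and 290, 159 and 157 CPM in aged hearts (log2 fold change 1.46 ± 0.42 SE, adjusted p = 0.0927). Card9, which links Dectin-1 and Mincle to NF-κB, rose by 1.45 ± 0.44 (SE, adjusted p = 0.0968), the adaptor DAP10 (Hcst) by 1.38 ± 0.41 (SE, adjusted p = 0.0944) and SLP-76 (Lcp2) by 1.79 ± 0.62 (SE, adjusted p = 0.112). The lipid kinase subunit Pik3cd rose by 0.98 ± 0.35 (SE, adjusted p = 0.114). Of the other 6 that rose, Syk, the kinase of the activating receptors, and Inpp5d, which encodes SHIP-1, are named for their roles above, after their values were seen (1.98 ± 0.74 and 1.34 ± 0.48 SE, adjusted p = 0.123 and 0.117). The gene that fell was the transcription factor Nfatc2 (-1.73 ± 0.60 SE, adjusted p = 0.112). DAP12 (Tyrobp), named on the same ground, was at 8.65, 8.33 and 95.4 CPM in young hearts and 262, 164 and 164 CPM in aged hearts, and missed the limits (2.39 ± 1.01 SE). Without young heart 15, 22 of the 28 were higher, against a background of 26.9% of all genes. When another single heart was left out 2 to 7 were. The count was 2 without aged heart 3, against a background of 7.47%, and 2 without young heart 13, against a background of 6.13%. In these 2 fits the share higher was close to that of all genes.

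Paired and related receptors with other names were counted from a separate list. Of 18 such genes 17 were in the table and 14 were tested. Of these 7 rose, against a background of 13.2% of all genes, and 0 fell, against a background of 19.0%. The complement receptor Vsig4 of tissue macrophages measured 0.0605, 0.0636 and 0.867 CPM in young hearts and 16.2, 8.07 and 6.63 CPM in aged hearts. Its log2 fold change was 4.82 ± 0.98 (SE, adjusted p = 0.0916). Young hearts 3 and 13 had 1 count each, under the floor of 3 counts, so the size of this rise is uncertain. Pirb, Treml2, Trem3, Oscar and Cd33 were among the others that rose.

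Markers of the cells that carry these receptors differed as well, and their part in the receptor results was not tested. The background for the counts that follow is 13.2% of all genes higher and 19.0% lower. Of the 9 tested neutrophil markers 8 rose, among them Lcn2 (log2 fold change 2.39 ± 0.43 SE, adjusted p = 0.0916) and Cxcr2 (4.42 ± 1.28 SE, adjusted p = 0.0927), with Cxcr1 at 0 in every heart. Of the 12 macrophage markers 7 rose, with Cd163, the haemoglobin scavenger receptor, at 44, 42.4 and 54.5 CPM in young hearts and 452, 164 and 122 CPM in aged hearts (2.39 ± 0.53 SE, adjusted p = 0.0916). Cd163 and Adgre1 set young heart 15 with the other young hearts, whereas Cd68, chosen after its values were seen, at 149 CPM in young heart 15 against 8.83 and 6.87 CPM, set it with the aged hearts (129 to 220 CPM). Of 7 dendritic cell markers 2 rose (Batf3 and Ccr7), of 8 tested T and NK cell markers 1 rose (Cd2), and 0 in either list fell. For the T and NK cell markers the share higher was close to the background. Of 6 tested fibroblast markers 2 fell (Dpt and Col1a1), and of 9 cardiomyocyte markers 4 fell (Pln, Myh6, Actc1 and Myl2).

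**Figure D5:**
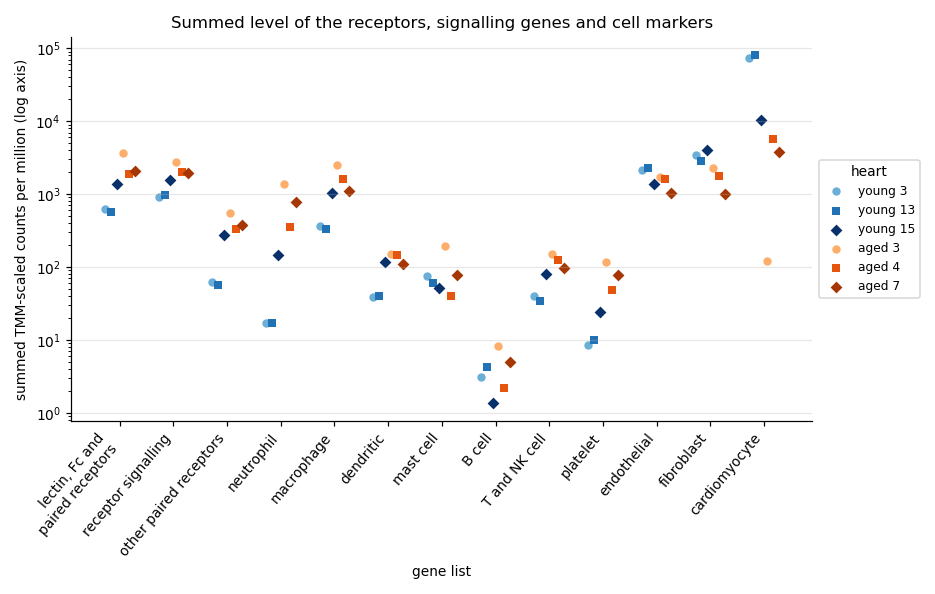
Summed TMM-scaled CPM, on a log axis, of the 58 receptor genes, the signalling genes, other paired receptors and 10 lists of cell markers, with one symbol per heart (blue for young, orange for aged). The receptor sum is 624 and 567 in young hearts 3 and 13, 1397 in young heart 15 and 1910 to 3642 in aged hearts, while the cardiomyocyte sum is 72577 in young heart 3 and 121 in aged heart 3.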

How the data were processed

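The authors deposited one table with the raw read count and the FPKM value of each gene in each of 6 hearts, without pooling. The submitters' processing notes name HISAT2 2.0.5, StringTie 1.3.3b, featureCounts 1.5.0-p3, DESeq2 1.16.1, GATK 3.7 and build Rnor 6.0, with no role or order, and the use of strand is not given in the sources used here. The deposited FPKM values of the members equalled count over length and library total within 0.1% in 348 of 348 values, so only counts were analysed.

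Counts were filtered (filterByExpr), scaled by TMM and tested by edgeR 4.0.16 (glmQLFit, glmQLFTest; R 4.3.3) over all genes of the table without covariates, with Benjamini-Hochberg adjustment over all 13784 genes tested. Standard errors were taken as log2 fold change over the square root of F. The study's limits were kept (fold above 1.5 or below 0.67, p under 0.05, taken here as unadjusted). Alternatives were other scalings, filters and limits, DESeq2 1.42.0, limma-voom (limma 3.58.1) with quality weights, and leaving out each heart. Scripts for sums, promoters and figures used Python 3.11.15.

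Every gene of the rule was accounted for. Values per heart are given for every gene past the limits and for Fcer1g, and up to 6 genes are named per other list by smallest p, apart from Syk, Inpp5d, Tyrobp and Cd68. The members and all lists were chosen with earlier results of these data known. Letters were searched in RefSeq promoters (GRCr8, 250 bases before to 50 after the start). The floor of 3 counts, taken as the smallest signal, covers counting error only, whereas standard errors include the spread between hearts. Protein sequences were not used here.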

Additional observations from a re-analysis of the deposited data

How the results depend on the processing

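All values rest on 3 hearts per group, and the spread within the young group limits what can be called. The count of receptors higher in aged hearts was 14, and it was 23 by DESeq2's Wald test, 33 by limma-voom, 6 at an adjusted p under 0.1, 0 at an adjusted p under 0.05 and 4 to 33 with each heart left out in turn (33 without young heart 15, 1 of them not tested with all hearts). The shares of all genes called higher moved too, being 13.2% with the settings reported, 15.6% by DESeq2, 26.8% by limma-voom, 6.49% at an adjusted p under 0.1, and 5.83% (without young heart 3) to 26.9% (without young heart 15) with each heart left out. The count lower was 5 (19.0% of all genes). It was 3 with library totals alone (10.5% of all genes) and 3 with the stricter filter (19.3%), which leaves fewer genes tested. At an adjusted p under 0.1 it was 2 (12.2% of all genes), and at an adjusted p under 0.05 it was 0, as over all genes. With each heart left out it was 2 to 5. It was 2 without aged heart 7, where 13.7% of all genes were lower, and 5 without young heart 15, where 24.2% were. Signalling genes higher numbered 11, against 18 by DESeq2, 22 by limma-voom, 3 at an adjusted p under 0.1, 0 at an adjusted p under 0.05 and 2 to 22 with each heart left out. Receptors with every aged heart above every young heart numbered 22 (21.0% of all genes), and 23 to 34 with each heart left out, where 22.0% to 37.8% of all genes did. Where counts moved with a test or scaling, the cause was not tested.

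The direction of 5 receptors, none of them called, reversed under some setting. Lilrb3 took 0.031 with library totals alone, 4.11 by limma-voom and -0.67 to 4.45 with each heart left out. Clec4a took 0.12 with library totals alone, 1.15 by limma-voom and -0.58 to 1.36 with each heart left out. Cd300e took -0.12 by limma-voom and -0.0047 to 0.76 with each heart left out, Clec9a -0.044 to 0.67, and Clec11a 0.19 with library totals alone and -0.69 to 0.021 with each heart left out. DESeq2's size factors and leaving out the mitochondrial genes changed no call among the 46 receptors. At this depth the 12 receptors that failed the filter, Fcer1a among them, could not be compared. No paired analysis was possible because the groups share only the animal number 3, which names different hearts.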

Other observations

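Markers of mast cells, which carry the high-affinity IgE receptor, were also examined. Of 7 tested mast cell markers 4 fell, against a background of 19.0% of all genes, and 1 rose, against a background of 13.2%. Ms4a2, the β chain of that receptor, measured 2, 1.91 and 1.32 CPM in young hearts and 0.296, 0.265 and 0.23 CPM in aged hearts (log2 fold change -2.69 ± 0.39 SE, adjusted p = 0.0916), and the mast cell protease Mcpt1l1 15.7, 10.5 and 8.18 CPM against 1.28, 0.796 and 1.61 CPM (-3.22 ± 0.41 SE, adjusted p = 0.0916). In both genes young heart 15 lay with the other young hearts, unlike in most of the receptors. The macrophage markers Cd163 and Adgre1 did so too. Cma1 and Cpa3 fell as well (-2.13 ± 0.38 and -2.55 ± 0.54 SE), whereas Kit, which other cells of the heart also express, rose (1.48 ± 0.60 SE) and was highest in aged heart 3 (190 CPM). The third chain of the receptor, Fcer1g, is shared with other receptors and was higher in every aged heart.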
